A study of Mus musculus with 12 samples.

Results

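Saa3, Hp, Slpi and Lcn2, 4 genes for secreted proteins of the acute phase and of protease control, were followed in RNA counts of mouse paw joints. They are 4 of the 52636 gene identifiers in the deposited table, and all 4 passed the filter on low counts. They were chosen by their measured counts, for large differences between the arthritic joints of mice given a control antibody and the joints of naive mice, so that their values in that contrast are given as a description, without a test. The RNA came from 12 mice in 3 groups of 4, with 1 library per animal. One group received serum of K/BxN mice and 6F2, an agonistic antibody to SIRPa (KBxN + 6F2, called 6F2 mice below). A second group received the same serum and anti-gp120, the negative control antibody (KBxN + aGP120, called control-antibody mice). The last group was naive and also received anti-gp120 (Naive + aGP120, called naive mice). Joints were taken 7 days after serum transfer. No strain, sex or age of the mice is given in the sources used here. The serum supplies the arthritogenic antibodies ready-made, so the model covers the effector stage of arthritis and not the loss of tolerance that precedes it.

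The acute phase response is the change in secreted plasma proteins that follows tissue injury or infection. It is best known from the liver, where interleukin 6 acts through STAT3 and interleukin 1 acts through NF-kappa B and C/EBP factors to switch on its genes, but some of these genes are also induced in inflamed tissue itself. Serum amyloid A3 (Saa3) is the member of the mouse serum amyloid A family made mainly outside the liver, by macrophages, fibroblasts and fat cells. Haptoglobin (Hp) binds free haemoglobin and is made by liver, by fat cells and by maturing granulocytes. Secretory leukocyte protease inhibitor (Slpi) blocks neutrophil elastase and cathepsin G. Lipocalin 2 (Lcn2) withholds iron from bacteria by binding their siderophores, and is stored in the specific granules of neutrophils. SIRPa, the receptor bound by 6F2, is an inhibitory receptor of myeloid cells whose ligand is CD47.

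On GRCm38 all 4 genes are protein-coding and lie on the minus strand. Saa3 (ENSMUSG00000040026) spans chr7:46711998-46715700, with up to 4 exons in its 3 annotated transcripts. Its relatives Saa4, Saa1 and Saa2 lie near it on chromosome 7. Hp (ENSMUSG00000031722) spans chr8:109575128-109579172, with up to 5 exons in 3 transcripts. Slpi (ENSMUSG00000017002) spans chr2:164354070-164389095, with up to 4 exons in 3 transcripts, and shares 1 exonic base with Mir7678. Lcn2 (ENSMUSG00000026822) spans chr2:32384633-32388252, with up to 7 exons in 6 transcripts.

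The promoter windows of 3 of the 4 genes were in the RefSeq table for GRCm38.p6. They are shown because C/EBP, STAT and NF-kappa B factors are the known drivers of acute phase genes. Each window runs from 250 bases before to 50 bases after the RefSeq start, 5′ to 3′ on the minus strand of the chromosome. Capitals mark matches to TTGCNNAA, a C/EBP-type motif, on either strand. RefSeq starts need not be the outer end of the GENCODE gene span given above, and that of Slpi lies well inside it. The windows are chr7:46715627-46715926 for Saa3, chr2:164356458-164356757 for Slpi and chr2:32387690-32387989 for Lcn2.
Saa3: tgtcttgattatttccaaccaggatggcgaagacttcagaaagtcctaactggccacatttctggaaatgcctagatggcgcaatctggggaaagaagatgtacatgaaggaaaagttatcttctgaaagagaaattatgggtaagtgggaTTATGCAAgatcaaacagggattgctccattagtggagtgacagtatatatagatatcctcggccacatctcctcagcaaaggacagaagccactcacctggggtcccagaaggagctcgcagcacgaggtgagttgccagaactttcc
Slpi: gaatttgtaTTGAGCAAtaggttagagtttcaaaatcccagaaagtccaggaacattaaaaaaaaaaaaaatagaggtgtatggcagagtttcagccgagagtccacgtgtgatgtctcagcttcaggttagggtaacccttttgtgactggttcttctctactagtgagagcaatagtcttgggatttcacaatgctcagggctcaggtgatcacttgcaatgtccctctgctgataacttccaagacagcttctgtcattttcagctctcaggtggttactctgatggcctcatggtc
Lcn2: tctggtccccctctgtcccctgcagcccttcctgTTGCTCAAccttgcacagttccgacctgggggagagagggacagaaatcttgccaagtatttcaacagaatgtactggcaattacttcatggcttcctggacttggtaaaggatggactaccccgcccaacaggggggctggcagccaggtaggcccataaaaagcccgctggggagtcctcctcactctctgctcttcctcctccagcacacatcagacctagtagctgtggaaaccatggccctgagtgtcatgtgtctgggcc

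Each of the 3 windows held 1 match to TTGCNNAA. The match began 99 bases before the start in Saa3, 241 bases before it in Slpi and 216 bases before it in Lcn2. The Slpi match TTGAGCAA is the reverse complement of the Lcn2 match TTGCTCAA, so that these windows hold the same letters on opposite strands. Of 32544 distinct promoter windows of the same length, 10.8% held this motif. The STAT motif TTCNNNGAA and the kappa B motif were searched on both strands too, had no match in these windows, and were present in 8.33% and 8.49% of all windows.

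Total counts were 13791454 to 17597920 per library in 6F2 mice, 6893969 to 13416033 in control-antibody mice and 14289363 to 16205593 in naive mice, so that 3 counts, used as the detection floor, came to 0.17 to 0.39 CPM, the counts scaled to library size. CPM values are TMM-scaled and given as mean ± SD of 4 mice. A list of 8 cartilage genes summed to 530 to 598 CPM in 6F2 mice, 465 to 894 CPM in control-antibody mice and 426 to 598 CPM in naive mice, while 9 skeletal muscle genes summed to 53500 to 82000 CPM in 6F2 mice, 30400 to 82200 CPM in control-antibody mice and 71900 to 102000 CPM in naive mice. The paw tissue thus held joint cartilage together with a large share of muscle RNA. In control-antibody mice 1 to 4 the muscle sums were 82241, 30397, 37354 and 53061 CPM. Control-antibody mouse 1, with the highest muscle sum of its group, was the lowest of its group for all 4 genes. The part of muscle content in these values was not tested. The fits were repeated with each of the 12 libraries left out in turn.

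Saa3 had 3, 6, 3 and 23 counts in 6F2 mice 1 to 4, 7, 115, 257 and 102 counts in control-antibody mice 1 to 4, and 0 counts in each of the 4 naive libraries. In CPM these were 0.176, 0.386, 0.216 and 1.30 in 6F2 mice and 0.578, 14.9, 19.4 and 7.33 in control-antibody mice. Control-antibody mice 2, 3 and 4 were above every other library, and control-antibody mouse 1 lay between 6F2 mice 2 and 4. The means were 0.520 ± 0.528 CPM in 6F2 mice and 10.6 ± 8.31 CPM in control-antibody mice. Against a naive level taken as 3 counts per library, or 0.208 CPM, the mean was at least 2.49-fold higher in 6F2 mice and at least 50.7-fold higher in control-antibody mice. The bound for 6F2 mice rests on mouse 4, which held 23 of the group's 35 counts: without it the mean was 0.259 CPM and the bound 1.25-fold. The values of 6F2 mice 1 and 3 are themselves at this floor. In bulk tissue, fewer cells of a type and less RNA per cell cannot be told apart, which holds for every gene here.

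The other serum amyloid A genes were near the limit of detection and none passed the filter on low counts. Over the 4 libraries of a group, Saa1 had 7 counts in 6F2 mice, 44 in control-antibody mice and 5 in naive mice. Saa2 had 3 counts in 6F2 mice, 35 in control-antibody mice and 2 in naive mice, and Saa4 had 1 in 6F2 mice, 13 in control-antibody mice and 0 in naive mice. Saa3 had 35 counts in 6F2 mice, 481 in control-antibody mice and 0 in naive mice. Saa3 thus held most of the family's counts in both groups given serum. Saa1 and Saa2 are near-identical copies, so that the division of reads between them is uncertain.

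Hp was the most abundant of the 4 genes per length. It had 12.9, 11.7, 22.4 and 15.2 CPM in 6F2 mice 1 to 4, 8.09, 98.9, 380 and 82.9 CPM in control-antibody mice 1 to 4, and 5.47, 5.54, 7.02 and 5.90 CPM in naive mice 1 to 4. Every 6F2 library was above every naive library, and control-antibody mouse 1 was below all 4 of the 6F2 libraries. The means were 15.6 ± 4.80 CPM in 6F2 mice, 143 ± 163 CPM in control-antibody mice and 5.98 ± 0.717 CPM in naive mice. Control-antibody mouse 3 alone held 5046 of the 7058 Hp counts of its group.

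Slpi had 4, 9, 12 and 9 counts in 6F2 mice, 13, 118, 135 and 130 counts in control-antibody mice, and 6, 0, 11 and 1 counts in naive mice. In CPM these were 0.235, 0.579, 0.865 and 0.509 in 6F2 mice, 1.07, 15.3, 10.2 and 9.34 in control-antibody mice, and 0.365, 0, 0.772 and 0.0766 in naive mice. All 4 of the 6F2 libraries were below all 4 control-antibody libraries, although the highest 6F2 library was close to control-antibody mouse 1. The 6F2 and naive libraries overlapped. The means were 0.547 ± 0.259 CPM in 6F2 mice, 8.98 ± 5.90 CPM in control-antibody mice and 0.303 ± 0.35 CPM in naive mice.

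Lcn2 had 73, 44, 94 and 28 counts in 6F2 mice, 22, 90, 206 and 88 counts in control-antibody mice, and 9, 9, 4 and 8 counts in naive mice. In CPM these were 4.28, 2.83, 6.78 and 1.58 in 6F2 mice, 1.82, 11.7, 15.5 and 6.32 in control-antibody mice, and 0.547, 0.631, 0.281 and 0.613 in naive mice. The 2 groups given serum overlapped: 6F2 mouse 3 was above control-antibody mouse 4, and control-antibody mouse 1 was below 3 of the 6F2 mice. All 8 libraries of mice given serum were above all 4 naive libraries. The means were 3.87 ± 2.23 CPM in 6F2 mice, 8.84 ± 6.02 CPM in control-antibody mice and 0.518 ± 0.162 CPM in naive mice.

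**Figure D1:**
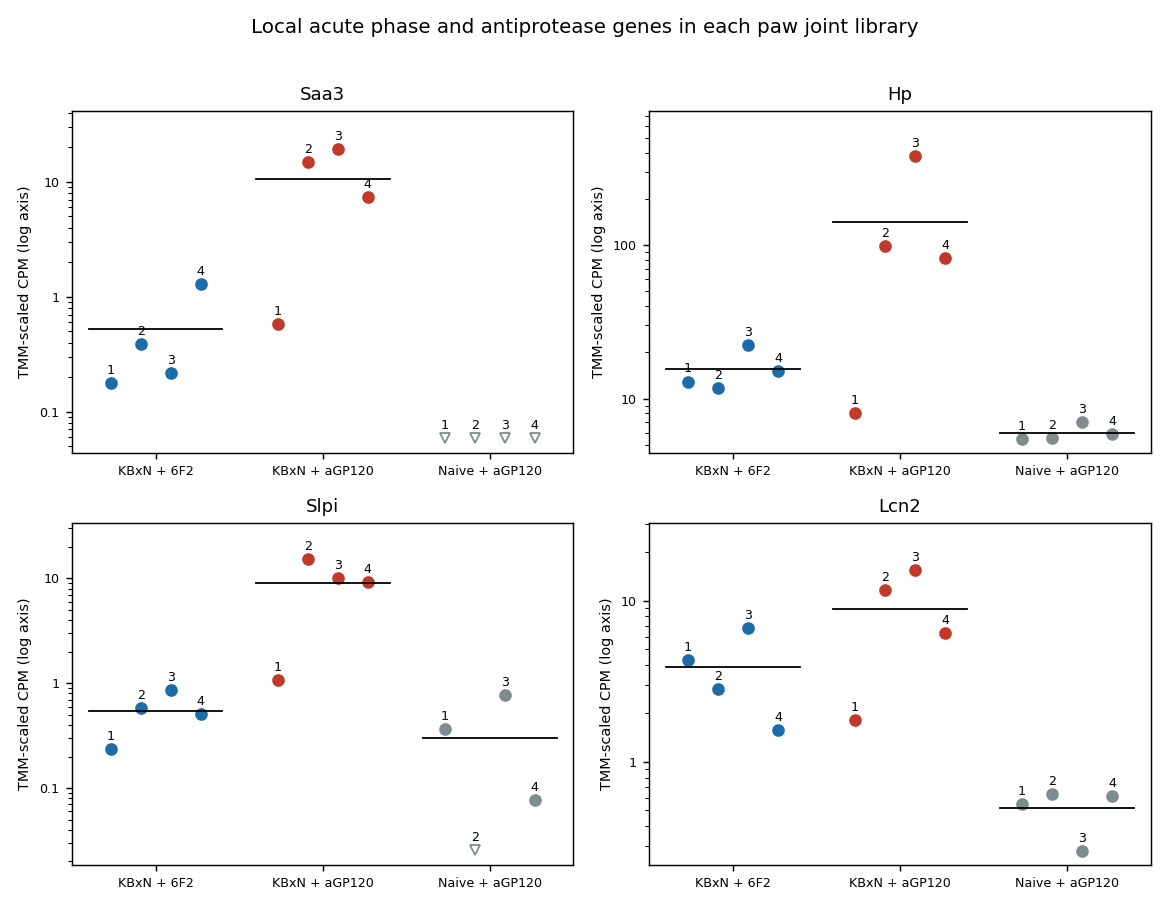
TMM-scaled CPM of Saa3, Hp, Slpi and Lcn2 (log axis) in each library of KBxN + 6F2, KBxN + aGP120 and Naive + aGP120 mice, with the mouse number above each point, the mean of 4 mice as a line, and open triangles at the bottom for libraries with 0 counts. Control-antibody mouse 1 lies lowest of its group in all 4 panels, and the Lcn2 values of 6F2 mice (1.58 to 6.78 CPM) overlap those of control-antibody mice (1.82 to 15.5 CPM) and lie above all naive ones (0.281 to 0.631 CPM).

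In control-antibody mice against naive mice, the contrast that chose the genes, the log2 fold change was 4.58 ± 0.94 (SE) for Hp, 4.83 ± 0.90 for Slpi and 4.07 ± 0.66 for Lcn2. All 4 genes were higher in control-antibody mice without overlap between these groups, as were 5.93% of all tested genes. The lowest control-antibody library was 1.15 times the highest naive library for Hp, 1.39 times for Slpi and 2.88 times for Lcn2. The groups were therefore narrowly apart for Hp and Slpi, through control-antibody mouse 1. The Hp fold change was 3.40 without control-antibody mouse 3, and with any 1 library left out it ran up to 4.96. That of Slpi ran from 4.39 without naive mouse 2 to 5.77 without naive mouse 3, and that of Lcn2 from 3.64 without control-antibody mouse 3 to 4.41 without control-antibody mouse 1.

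The comparison of 6F2 with control-antibody mice asks how these genes differed with the agonist antibody among mice given the serum. Slpi fell, and it was the only one of the 4 genes to pass the threshold. Its log2 fold change was -4.03 ± 0.84 and its adjusted p = 0.0338 (edgeR quasi-likelihood test, adjusted over 16674 genes). In the same test 3.29% of genes were called, and 1.7% were called lower in 6F2 mice. Non-overlap in this direction, which Slpi also showed, was found in 4.7% of genes. Saa3 had a log2 fold change of -4.30 ± 1.07 (adjusted p = 0.0681), Hp of -3.20 ± 0.87 (adjusted p = 0.0703) and Lcn2 of -1.20 ± 0.56 (adjusted p = 0.207). The control-antibody libraries in these tests are the ones whose high values chose the genes, so the 4 directions are not independent of that choice.

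The number of the 4 genes that passed depended on single libraries of all 3 groups. It was 0 when any 6F2 mouse, control-antibody mouse 2, 3 or 4, or naive mouse 1 was left out, where Slpi had adjusted p = 0.0506 to 0.112. It was 1, again Slpi, without naive mouse 2, 3 or 4. It was 4 without control-antibody mouse 1, but that mouse was the lowest of its group for these genes, so that leaving it out widens the difference and narrows the spread, and no call is read from that fit. The number of called genes in the whole table was then 3976 in place of 548. Without control-antibody mouse 3, the highest for 3 of the genes, the log2 fold change was -2.02 for Hp (adjusted p = 0.169) and -0.76 for Lcn2 (adjusted p = 0.481). Without 6F2 mouse 4 it was -5.25 for Saa3 (adjusted p = 0.0590). All of these fits kept a lower level in 6F2 mice for each of the 4 genes.

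In 6F2 mice against naive mice no gene of the table passed the threshold in edgeR (0% called), while 675 had an unadjusted p under 0.05 and DESeq2 called 20. Lcn2 was one of those 20: its log2 fold change was 2.88 ± 0.64, with an unadjusted p = 0.000659 and adjusted p = 0.687 in edgeR, and 2.89 with adjusted p = 0.00453 in DESeq2. Its edgeR p ranked 16 among 16674 genes, and its mean was 7.47 times the naive mean. Hp had a log2 fold change of 1.38 ± 0.86 (unadjusted p = 0.14), with a mean 2.60 times the naive mean. Slpi had a log2 fold change of 0.80 ± 0.94 (unadjusted p = 0.411), with 4 to 12 counts per library in 6F2 mice and 0 to 11 in naive mice, and its fold change ran from 0.41 without naive mouse 2 to 1.74 without naive mouse 3. Saa3, with 35 counts in 6F2 libraries and 0 in naive libraries, had an unadjusted p = 0.028, and 23 of the 35 counts were in 6F2 mouse 4. Saa3, Hp and Lcn2 were higher in 6F2 mice without overlap between these groups, as were 3.04% of all tested genes. This comparison shares its 6F2 libraries with the preceding one and its naive libraries with the one that chose the genes.

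The 4 genes differed in how far the 6F2 mean stood from the naive mean. The difference between 6F2 and naive means was 4.92% of that between control-antibody and naive means for Saa3, 7.01% for Hp and 2.80% for Slpi, but 40.2% for Lcn2. With each of the 12 libraries left out in turn, the share ran from 2.46% (without 6F2 mouse 4) to 6.82% (without control-antibody mouse 3) for Saa3, from 5.28% (without control-antibody mouse 1) to 16.7% (without control-antibody mouse 3) for Hp, and from 1.58% (without 6F2 mouse 3) to 4.52% (without naive mouse 3) for Slpi. For Lcn2 it ran from 28.6% (without 6F2 mouse 3) to 55.0% (without control-antibody mouse 3). The Lcn2 range did not overlap those of the other 3 genes. These ranges show the weight of single libraries and are not error ranges. The share divides by the difference between control-antibody and naive means, the contrast that chose the genes. The difference between the genes was not tested.

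**Figure D2:**
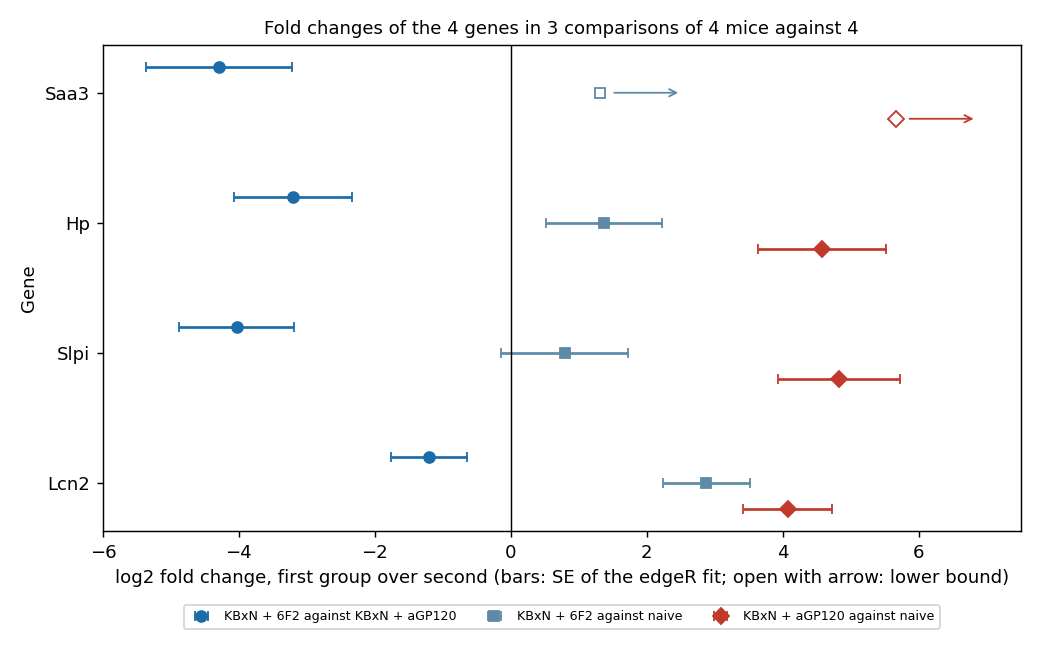
Log2 fold changes of Saa3, Hp, Slpi and Lcn2 with their SE from the edgeR fit, first-named group over second, for KBxN + 6F2 against KBxN + aGP120, KBxN + 6F2 against naive and KBxN + aGP120 against naive. Saa3 had no count in naive mice, so its open symbols with arrows are lower bounds (at least 2.49-fold, which is 1.25-fold without 6F2 mouse 4, and at least 50.7-fold). Lcn2 has the smallest fall against KBxN + aGP120 (-1.20), and its value against naive in 6F2 mice (2.88) lies above those of Hp (1.38) and Slpi (0.80).

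Among the 4 mice of a group the genes did not share 1 order. Control-antibody mouse 3 was highest for Saa3, Hp and Lcn2, and mouse 2 was highest for Slpi. In 6F2 mice, mouse 3 was highest for Hp, Slpi and Lcn2, whereas mouse 4 was highest for Saa3 and lowest for Lcn2. Per length, in TPM, the 4 genes together came to 34.5, 32.9, 58.7 and 39.1 TPM in 6F2 mice, 23.7, 311, 969 and 222 TPM in control-antibody mice, and 14.2, 12.9, 17.8 and 12.9 TPM in naive mice. Hp made up 80.4% to 86.1% of this sum in 6F2 mice, 72.6% to 91.5% in control-antibody mice and 85.2% to 93.5% in naive mice. Lcn2 made up 5.48% to 16.4% of it in 6F2 mice, 2.29% to 10.1% in control-antibody mice and 2.09% to 6.52% in naive mice. The level of Hp averaged 33.8 TPM in 6F2 mice, 327 TPM in control-antibody mice and 12.9 TPM in naive mice, and that of Lcn2 averaged 5.12 TPM in 6F2 mice, 12.3 TPM in control-antibody mice and 0.681 TPM in naive mice.

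The genes whose pattern over the 12 libraries was most like that of each member were found by the mean absolute difference of log2 CPM, each gene centred on its own mean, among genes with a mean log2 CPM of at least 1. Saa3 and Slpi were below that level themselves, so neither could be listed for another member. The difference between Saa3 and Slpi was 0.788, smaller than that between Saa3 and Hp. For Saa3 they were Mmp3, a matrix-degrading stromelysin (mean difference 0.623), Ccl7, a monocyte chemokine (0.695), Timp1, a metalloprotease inhibitor (0.845), and Tnfaip6, a hyaluronan-binding protein (0.919), followed by Hp (0.929). The median over 12079 genes was 2.19. For Hp they were Cthrc1 (0.415), Adam12 (0.475), Angptl4 (0.487), Bcat1 (0.523) and Timp1 (0.538), where the median was 1.54. For Slpi they were Angptl4 (0.556), Timp1 (0.583), Mmp3 (0.611), Tnfaip6 (0.624) and Cthrc1 (0.625), where the median was 1.71.

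Lcn2 shared only Adam12 (0.665) with these lists. The other genes most like it were Fgr, a Src-family kinase of myeloid cells (0.602), Ccl2, a monocyte chemokine (0.61), Cytip, an adaptor of blood cells (0.619), and Vcam1, an adhesion molecule (0.656), against a median of 1.48. Fgr averaged 3.52 ± 2.12 CPM in 6F2 mice, 8.64 ± 5.18 CPM in control-antibody mice and 1.44 ± 0.652 CPM in naive mice. By contrast Mmp3 averaged 3.27 ± 1.30 CPM in 6F2 mice, 96.9 ± 74.0 CPM in control-antibody mice and 2.22 ± 0.294 CPM in naive mice. Between the members, the difference was smallest for Hp and Lcn2 (0.716) and for Saa3 and Slpi (0.788), and largest for Saa3 and Lcn2 (1.27). All of these values rest on the same 12 libraries, in which the control-antibody mice had the widest spread of all 4 genes.

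Other genes of the same response were read from 5 lists of 96 genes, of which 55 could be tested. Of the 55, 2 were higher and 12 lower in 6F2 than in control-antibody mice, none was called in 6F2 against naive mice, and 15 were higher and 1 lower in control-antibody than in naive mice. In the control-antibody against naive comparison 10.3% of all tested genes were called, 5.87% higher and 4.45% lower. In 6F2 against control-antibody mice 1.59% of all tested genes were called higher and 1.7% lower. The lists were chosen with earlier results of these data known, so their counts and medians are a description. The comparisons share libraries and are given side by side. Of the 14 list genes called in 6F2 against control-antibody mice, the number was 0 when 6F2 mouse 1, 6F2 mouse 2, control-antibody mouse 3 or control-antibody mouse 4 was left out, 2 without control-antibody mouse 2, 3 without 6F2 mouse 3, and 7, 5 and 8 without naive mouse 1, 2 and 3, while it was 33 without control-antibody mouse 1. The 16 called in control-antibody against naive mice were 32 without control-antibody mouse 1, and 12 to 20 without any other library.

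The inducing cytokines, receptors and transcription factors gave most of the calls. This list too was chosen with earlier results of these data known. Of 15 tested of 22 listed, 8 were lower in 6F2 than in control-antibody mice and none was higher, against 1.7% called lower over all tested genes. The median log2 fold change was -0.951, against -0.0329 over all genes. Each of these 8 calls was lost when any of at least 4 of the 12 libraries was left out. The same comparison for control-antibody against naive mice gave 8 higher and none lower, with a median of 1.01, against 0.0293 over all genes, and 6F2 against naive mice gave a median of 0.1, against -0.00529. Il6, Osm, Il11, Il17a, Il17f, Il22 and Il1a were too low to be tested.

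Il1b, the cytokine interleukin 1 beta, had 0, 14, 3 and 8 counts in 6F2 mice, 13, 76, 248 and 85 counts in control-antibody mice and 0, 1, 0 and 0 counts in naive mice. In 6F2 against control-antibody mice it fell by 4.49 on the log2 scale (SE 0.93, adjusted p = 0.0338), without overlap in CPM. Nfkbiz encodes I-kappa B zeta, a nuclear cofactor of NF-kappa B that the Lcn2 gene is known to need in mouse macrophages. It had 10.7, 15.2, 16.1 and 16.3 CPM in 6F2 mice, 22.3, 43.4, 34.0 and 29.5 CPM in control-antibody mice and 10.8, 9.89, 11.2 and 9.26 CPM in naive mice, so that even control-antibody mouse 1 was above all 6F2 libraries. It fell by 1.15 (SE 0.20, adjusted p = 0.0193) in 6F2 against control-antibody mice, and rose by 1.65 (SE 0.20, adjusted p = 0.00258) in control-antibody against naive mice.

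The C/EBP factor genes had smaller differences on the log2 scale. Cebpb averaged 154 ± 24.5 CPM in 6F2 mice, 259 ± 45.5 CPM in control-antibody mice and 130 ± 14.2 CPM in naive mice, and fell by 0.76 (SE 0.15, adjusted p = 0.0289) in 6F2 against control-antibody mice. Cebpd had 34.9, 41.0, 54.9 and 24.7 CPM in 6F2 mice, 66.9, 66.5, 87.8 and 78.1 CPM in control-antibody mice and 29.8, 25.2, 25.8 and 35.5 CPM in naive mice, and fell by 0.95 (SE 0.20, adjusted p = 0.0335). The lowest 6F2 library for Cebpd, mouse 4, was also the lowest for Lcn2, and the highest, mouse 3, was the highest for Lcn2. In control-antibody mice, mouse 3 was highest for both, but mouse 2 was lowest for Cebpd and mouse 1 for Lcn2. For Nfkbiz, 6F2 mouse 4 was the highest of its group. A link between these genes and Lcn2 was not tested. Socs3, the feedback inhibitor of interleukin 6 family signalling, had 25.8, 41.6, 31.3 and 32.3 CPM in 6F2 mice, 34.7, 120, 142 and 103 CPM in control-antibody mice and 22.7, 15.2, 24.1 and 20.7 CPM in naive mice, and fell by 1.61 (SE 0.35, adjusted p = 0.0376). Here control-antibody mouse 1 lay within the 6F2 range. The other 3 genes of the 8 were receptors or a cofactor: Osmr, the oncostatin M receptor, fell by 1.08 (SE 0.20, adjusted p = 0.0262), Bcl3, a nuclear I-kappa B protein, fell by 2.29 (SE 0.44, adjusted p = 0.0291), and Il1r1, the interleukin 1 receptor, fell by 1.12 (SE 0.26, adjusted p = 0.0403).

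**Figure D3:**
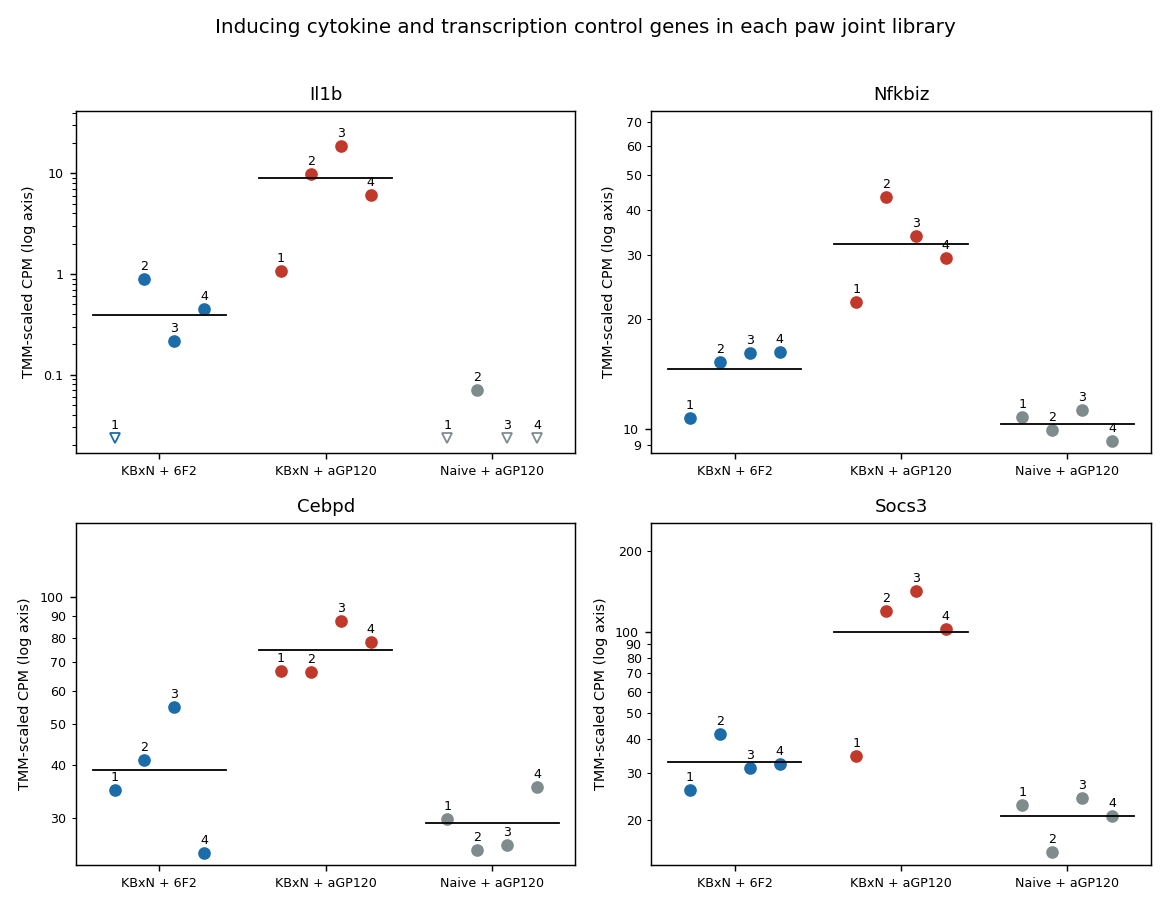
TMM-scaled CPM (log axis) of Il1b, Nfkbiz, Cebpd and Socs3 in each library of KBxN + 6F2, KBxN + aGP120 and Naive + aGP120 mice, with mouse numbers, means as lines (not drawn where the mean lies under the lowest symbol) and open triangles for 0 counts. The 6F2 values of Nfkbiz (10.7 to 16.3 CPM) and Cebpd (24.7 to 54.9 CPM) lie below all control-antibody values, and for Socs3 control-antibody mouse 1 (34.7 CPM) lies among them.

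Of the secreted acute phase proteins, 11 of 26 were expressed highly enough to test. In 6F2 against control-antibody mice 2 were lower and 1 higher, where 1.7% of all tested genes were called lower and 1.59% higher. The median log2 fold change was -1.12, against -0.0329 over all genes. In control-antibody against naive mice 5 were higher and none lower, where 5.87% of all tested genes were called higher and 4.45% lower. The median there was 1.68, against 0.0293 over all genes. Ptx3, a long pentraxin made locally in inflamed tissue, had 6.63, 8.10, 7.06 and 5.77 CPM in 6F2 mice, 7.27, 47.0, 69.5 and 27.9 CPM in control-antibody mice and 4.92, 7.64, 6.74 and 10.1 CPM in naive mice. It fell by 2.46 (SE 0.53, adjusted p = 0.0382) in 6F2 against control-antibody mice, and mouse 1 again lay among the 6F2 libraries. Mt1, a metallothionein, also fell, by 1.70 (SE 0.34, adjusted p = 0.0328). Cp, the ferroxidase ceruloplasmin, went the other way: it averaged 70.5 ± 6.60 CPM in 6F2 mice, 43.0 ± 10.9 CPM in control-antibody mice and 61.0 ± 8.21 CPM in naive mice, and rose by 0.71 (SE 0.17, adjusted p = 0.0400) in 6F2 against control-antibody mice.

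Serpina3n, an inhibitor of serine proteases, had 32.7, 25.4, 28.5 and 28.1 CPM in 6F2 mice, 27.7, 51.0, 138 and 91.6 CPM in control-antibody mice and 13.8 to 19.3 CPM in naive mice. As for Hp, control-antibody mouse 3 was highest. Serpina3n rose by 2.19 (SE 0.39, adjusted p = 0.0112) in control-antibody against naive mice, and had a log2 fold change of -1.43 (adjusted p = 0.0619) in 6F2 against control-antibody mice. All 4 of its 6F2 libraries were above all naive libraries.

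Of the protease inhibitors 13 of 24 could be tested. The median log2 fold change of the list was 0.336 in 6F2 against control-antibody mice and -0.186 in control-antibody against naive mice, so that it lay on the other side of 0 from the value of Slpi in both comparisons. Of the list of proteases bound or inhibited by acute phase or antiprotease proteins, 4 of 9 could be tested and none was called. The median log2 fold change of this list was 0.97 in 6F2 against control-antibody mice. The neutrophil proteases Elane, Ctsg and Prtn3, which include the main targets of Slpi, were too low to test. Mmp9, the gelatinase to which LCN2 is known to bind in humans, averaged 16.2 ± 4.46 CPM in 6F2 mice, 138 ± 144 CPM in control-antibody mice and 21.3 ± 7.49 CPM in naive mice (log2 fold change -3.10, adjusted p = 0.0671 in 6F2 against control-antibody mice). The other tested proteases went the other way in that comparison. They were Mcpt4 (1.10, adjusted p = 0.0691), Tpsb2 (0.88, adjusted p = 0.0917) and Cma1 (1.06, adjusted p = 0.1165).

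Of the receptors and uptake genes 12 of 15 could be tested. Tlr2 and Cd36, both receptors that serum amyloid A is reported to engage, were called in opposite directions in 6F2 against control-antibody mice. Over all tested genes 1.7% were called lower there and 1.59% higher. Tlr2 fell by 1.08 (SE 0.27, adjusted p = 0.0448) in 6F2 against control-antibody mice. It averaged 8.67 ± 1.31 CPM in 6F2 mice, 18.3 ± 6.93 CPM in control-antibody mice and 7.13 ± 1.03 CPM in naive mice. Cd36 rose by 0.94 (SE 0.19, adjusted p = 0.0289): it had 75.6, 75.7, 77.1 and 74.3 CPM in 6F2 mice and 56.8, 23.9, 39.2 and 37.4 CPM in control-antibody mice, and 62.2 to 77.1 CPM in naive mice. Cd163, the receptor for haptoglobin bound to haemoglobin, averaged 63.5 CPM in 6F2 mice, 74.9 CPM in control-antibody mice and 54.2 CPM in naive mice and was not called (adjusted p = 0.407 in 6F2 against control-antibody mice). Hmox1, which degrades the haem so taken up, had a log2 fold change of -1.64 (adjusted p = 0.0802).

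**Figure D4:**
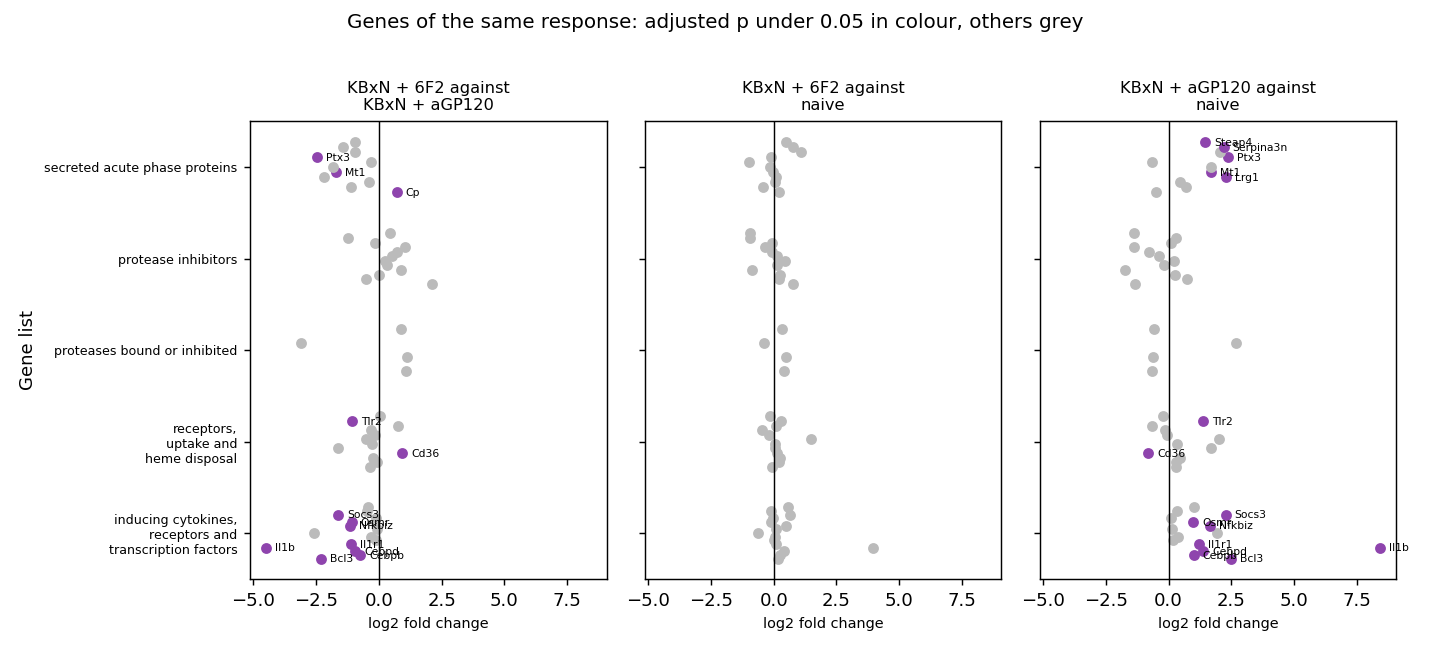
Log2 fold changes of the tested genes of 5 lists (rows), with 1 gene not drawn, in KBxN + 6F2 against KBxN + aGP120, KBxN + 6F2 against naive and KBxN + aGP120 against naive mice (panels), with genes past an adjusted p of 0.05 in colour and named. The list of inducing cytokines, receptors and transcription factors has 8 called genes in the left and right panels, all lower on the left and all higher on the right, and none in the middle. The value of Il1b against naive mice rests on 1 count in the 4 naive libraries.

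Markers of other cell types were high or low with the members in some libraries, and their part in the results was not tested. Hepatocyte markers, the 10 genes that would mark liver RNA, were near 0: they summed to 0.577 to 1.48 CPM in 6F2 mice, 0.377 to 6.76 CPM in control-antibody mice and 0.843 to 1.40 CPM in naive mice. Apob, Ttr, Cps1 and Serpina1c had no count in 6F2 mice, Cyp3a11 and Serpina1c had none in control-antibody mice, and Apob, Ttr, Cps1, Cyp3a11 and Serpina1c had none in naive mice. In control-antibody mice 1 to 4 the hepatocyte sums were 0.413, 6.76, 0.377 and 2.16 CPM. Mouse 3, the library with the most Hp and Saa3, thus had the lowest sum. Mouse 2, with the highest sum, was highest for Slpi and next to mouse 3 for Saa3, Hp and Lcn2.

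Mature neutrophil markers (10 genes, S100a8 and S100a9 among them) summed to 14.0, 14.3, 44.6 and 10.5 CPM in 6F2 mice, 12.4, 49.0, 35.0 and 21.3 CPM in control-antibody mice and 3.51 to 10.5 CPM in naive mice. The highest 6F2 library, mouse 3, was the one highest for Hp, Slpi and Lcn2, and the lowest, mouse 4, was lowest for Lcn2. Marrow granulocyte precursor markers (10 genes, among them Elane, Ctsg, Prtn3 and the specific granule genes Ltf, Camp and Ngp) summed to 20.7, 23.3, 73.0 and 8.14 CPM in 6F2 mice, 2.41 to 6.76 CPM in control-antibody mice and 0.211 to 6.59 CPM in naive mice. All 4 of the 6F2 sums were thus above all other libraries, again with mouse 3 highest and mouse 4 lowest, although none of the 4 precursor genes tested was called in any comparison. Ly6g had no count in 6F2 mice, and Fcnb and Ms4a3 had none in naive mice.

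Adipocyte markers (9 genes) summed to 234, 299, 404 and 351 CPM in 6F2 mice, 152, 81.4, 268 and 143 CPM in control-antibody mice and 158 to 219 CPM in naive mice. Within each group given serum the highest sum was in mouse 3, as for Hp. The other control-antibody mice did not share the order of Hp. Mouse 2 had the lowest adipocyte sum of all 12 libraries but was next to mouse 3 for Hp, and mouse 1, lowest for Hp, was next to mouse 3 for the sum. In 6F2 against control-antibody mice the median log2 fold change of the adipocyte list was 1.05, while that of Hp was -3.20. Monocyte and macrophage markers (10 genes) summed to 735 to 937 CPM in 6F2 mice, 572 to 1160 CPM in control-antibody mice and 607 to 650 CPM in naive mice, with control-antibody mouse 1 lowest of all 12. Fibroblast markers (10 genes) summed to 12900 to 17100 CPM in 6F2 mice, 11300 to 38200 CPM in control-antibody mice and 11300 to 17400 CPM in naive mice. In control-antibody mice 1 to 4 the fibroblast sums were 11270, 38153, 28419 and 27469 CPM. For this list and the monocyte and macrophage list, mice 2, 3 and 4 were above every 6F2 and naive library. The same held for Saa3, Hp and Slpi, but not for Lcn2. Keratinocyte markers (10 genes) summed to 40.8 to 14300 CPM in 6F2 mice, 366 to 3410 CPM in control-antibody mice and 37.7 to 10900 CPM in naive mice, and 6F2 mouse 4, with the highest sum, had the highest Saa3 (1.30 CPM) and the lowest Lcn2 (1.58 CPM) of its group. Erythroid markers (7 of 8 listed genes found) summed to 15.8 to 43.1 CPM in 6F2 mice, 6.40 to 12.1 CPM in control-antibody mice and 12.1 to 14.1 CPM in naive mice. All of the 6F2 sums were above all other libraries, with mouse 3 highest and mouse 4 lowest, as for the precursor markers. In 6F2 against control-antibody mice 1 of 6 tested erythroid and 2 of 9 adipocyte markers were called higher, against 1.59% of all genes. In the same comparison 2 of 10 fibroblast and 1 of 6 mature neutrophil markers were called lower, against 1.7% of all genes. In control-antibody against naive mice 6 of 10 monocyte and macrophage, 4 of 10 fibroblast and 3 of 6 mature neutrophil markers were called higher. The share called higher over all genes was 5.87%. There 1 of 7 cartilage markers was called higher and 1 lower, and 1 of 9 skeletal muscle markers was called lower.

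**Figure D5:**
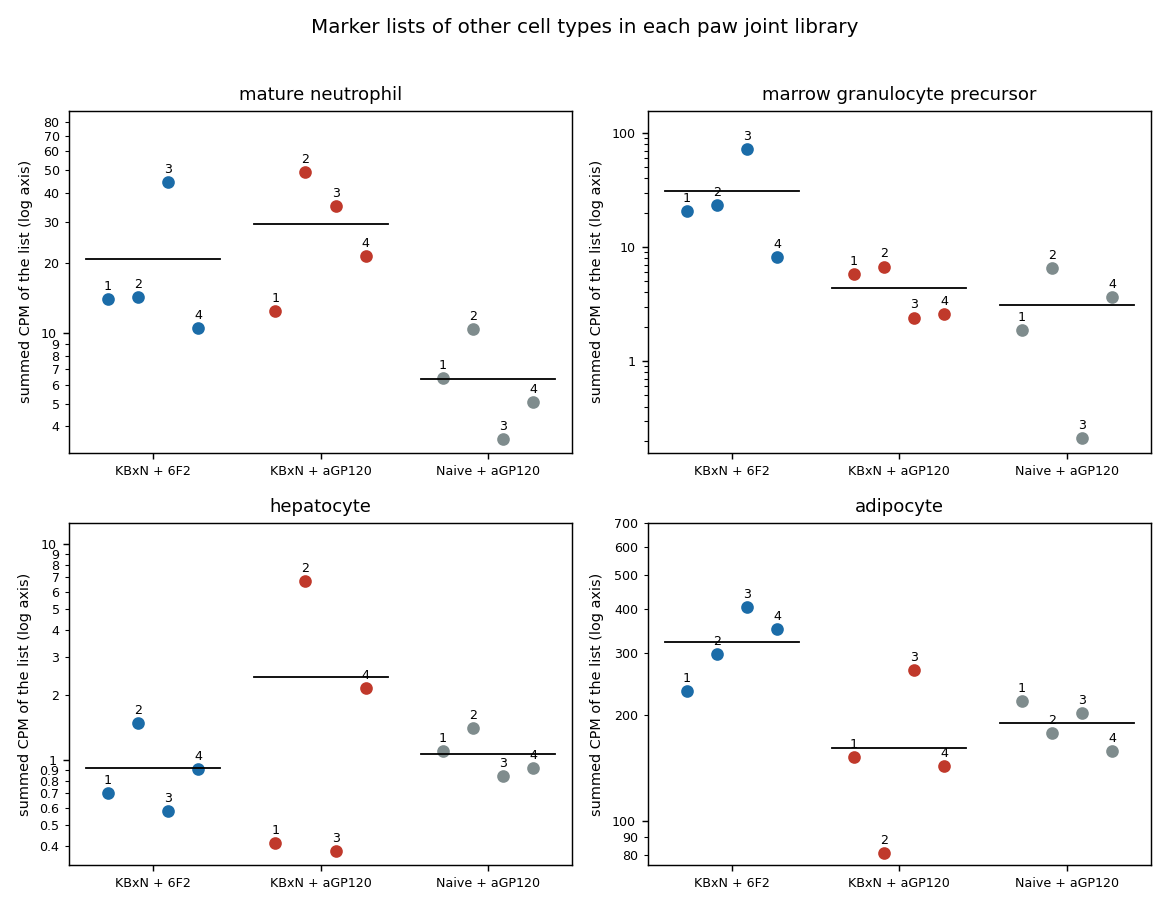
Summed TMM-scaled CPM (log axis) of mature neutrophil, marrow granulocyte precursor, hepatocyte and adipocyte marker lists in each library of KBxN + 6F2, KBxN + aGP120 and Naive + aGP120 mice, with mouse numbers and means as lines. The precursor sums of 6F2 mice (8.14 to 73.0 CPM) lie above those of all other libraries (at most 6.76 CPM), and hepatocyte sums stay at or under 6.76 CPM throughout.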

How the data were processed

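RNA of paw joints was measured in 12 libraries, 1 per mouse, made with a stranded kit from total RNA per the labels' protocols. The deposited files hold whole-number read counts per gene, and no normalization by the authors is recorded. The build is GRCm38 per the submitters' processing notes; the aligner, counter, strand setting and any sequencing batch are not given in the sources. The 12 sample files equalled the table of the series.

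The fit used edgeR 4.0.16 under R 4.3.3: filterByExpr by group (16674 genes), TMM, and robust quasi-likelihood over all 12 libraries, with Benjamini-Hochberg adjustment and a threshold of 0.05. The biological coefficient of variation was 0.334. Standard errors are the log2 fold change over the square root of F. TPM used exon lengths of GENCODE M21, which held 52489 of the 52636 identifiers. Floors cover counting error only. The fit was tested on simulated counts.

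The 4 genes and all lists were chosen with earlier results of these data known. Named genes are the up to 4 smallest p per list and comparison, the 5 genes most like each member and the serum amyloid A family; Il1r1 was added after its values were seen. One listed gene is counted in the list totals but not reported here. Alternatives were DESeq2 1.42.0, its size factors, no filter, a replicate block, fits of 2 groups, and left-out libraries.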

Additional observations from a re-analysis of the deposited data

Results flagged for a closer look

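Of 42 sets of 4 libraries checked (members, and marker sums, by group), 4 held a library far from the other 3, where the gap to the nearest library, as a part of the range, exceeded Dixon's critical value. Chance flags about 1 in 20 such sets. The summed mature neutrophil markers of 6F2 mouse 3 were 44.55 CPM, against 10.5 to 14.3 CPM in the other 6F2 mice; this mouse was highest of its group for Hp, Slpi and Lcn2. The summed keratinocyte markers of 6F2 mouse 4 were 14340 CPM, against at most 276 CPM in the other 6F2 mice; this mouse was highest of its group for Saa3 (1.30 CPM, 23 of 35 counts) and lowest for Lcn2. The summed monocyte and macrophage markers of control-antibody mouse 1 were 572.3 CPM, against at least 1125 CPM in the other mice of its group; this mouse was lowest of its group for all 4 genes. The summed skeletal muscle markers of naive mouse 4 were 101700 CPM, against at most 75692 CPM in the other naive mice.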

How the results depend on the processing

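No fold change of the 4 genes changed direction under an alternative that gave one; fits of 2 groups alone gave none against naive mice for Saa3 in either comparison or for Slpi in 6F2 mice, where the filter on low counts left them out. In 6F2 against control-antibody mice, Slpi passed with other size factors and in DESeq2, and did not pass without a filter on low counts (-3.95), with the 2 groups alone (-4.01), without control-antibody mice 2 and 4 (-3.32) or without naive mouse 4 and 6F2 mouse 2 (-4.04). DESeq2 called Saa3 (-4.31) and Hp (-3.17) there, and Lcn2 (2.89) in 6F2 against naive mice. Leaving out 1 library gave -5.25 to -3.82 for Saa3, -3.59 to -2.02 for Hp, -4.40 to -3.65 for Slpi and -1.60 to -0.76 for Lcn2 in 6F2 against control-antibody mice.

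The 548 genes called in 6F2 against control-antibody mice were 1892 in DESeq2, 0 with 2 groups alone and 0 without either pair of libraries, and 0 to 3976 with 1 library left out; the 14 list genes called there were 27 in DESeq2, 0 with 2 groups or without either pair, and 0 to 33 with 1 library left out. The 1721 called in control-antibody against naive mice were 2905 in DESeq2, 435 with 2 groups, 1 without control-antibody mice 2 and 4, 166 without naive mouse 4 and 6F2 mouse 2, and 412 to 4694 with 1 library left out; the 16 list genes were 0 and 6 without those pairs, and 12 to 32. The 0 called in 6F2 against naive mice were 4 without a filter and 20 in DESeq2. The cause of these changes was not tested; control-antibody mouse 1 gave the highest counts when left out. Of the calls of other genes of the lists and of genes most like the members, 0 of 23 in 6F2 against control-antibody mice held with each library left out (4 to 11 of the 12 libraries lost each call), against 19 of 28 in control-antibody against naive mice, and 0 changed direction. The genes most like the members were picked by their pattern over these same libraries, so their calls and directions are not independent of that choice.

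With the replicate block, Slpi had -3.91 (adjusted p = 0.0713) and the called genes were 78, 3 of them list genes, in 6F2 against control-antibody mice, and 735 in control-antibody against naive mice. Same-numbered libraries did not deviate together: of 12 pairs, 1 correlation was over 0.1, and they ran from -0.80 to 0.207. Counts were at most 3 for Saa3 in 6F2 mice 1 and 3 and in all naive mice, and for Slpi in naive mice 2 and 4, which limits the precision of those values.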
